A study of Mus musculus with 60 samples.

Results

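Cultures of Balb/c 3T3 cells exposed to 3-methylcholanthrene (MCA) at 2 µM for 24 h were compared with cultures given the solvent dimethyl sulfoxide (DMSO) for 24 h. The members were chosen by their sample labels: 3 arrays of MCA and the 3 DMSO arrays of the same time and the same experimental set, 6 of the 60 arrays in the series. Balb/c 3T3 is an immortal fibroblast line from mouse embryos of the BALB/c strain. The study exposed it to 4 carcinogens, first at concentrations taken from the literature, here approach 1, and then at concentrations meant to cause a fixed mild loss of growth, here approach 2. RNA was read on a 3'-biased Affymetrix expression array.

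All cultures of the series were grown in minimum essential medium with fetal bovine serum and treated below confluence. The controls received 0.75% DMSO, and the labels name no introduced allele in any group. Other groups serve for comparison: MCA at 2 µM for 120 h with its DMSO controls, benzo(a)pyrene (BaP) at 0.5 µM for 24 h, which shares the 24 h controls, and MCA at 20 µM for 24 h from approach 2, which has controls of its own. Each group holds 3 arrays. The labels say that several dishes were used per treatment and do not say whether the 3 arrays came from separate cultures. The p-values therefore measure only how far these arrays scatter, a scatter that can be technical.

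MCA is a polycyclic aromatic hydrocarbon and a classical agent for transforming fibroblasts in culture. Such hydrocarbons bind the aryl hydrocarbon receptor, a transcription factor held in the cytosol by chaperones, which then enters the nucleus, pairs with Arnt and switches on a battery of genes for drug metabolism. The enzymes of that battery, led by Cyp1a1 and Cyp1b1, oxidise the hydrocarbon and in doing so produce reactive metabolites that bind DNA.

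Values are deposited array intensities, and differences between groups are given on the scale log2(intensity + 16) after quantile normalisation, with the standard error of the limma fit after the ± sign and n = 3 arrays in each group throughout. This scale understates changes of dim genes. A gene is said to rise or fall where its Benjamini-Hochberg adjusted p over the 11960 genes tested was under 0.05. Median intensity per array was 41.2 to 43.1 with MCA and 41.7 to 43.6 in the controls, and arrays correlated within their group at 0.993 to 0.994 and 0.990 to 0.992. The log2 ratio of the 3' to the 5' probes of actin, a sign of RNA quality, was 0.27 ± 0.04 (SD, n = 3) with MCA and 0.29 ± 0.04 (SD, n = 3) in the controls. Of 15 fibroblast markers, 14 were above the array median on all 6 arrays and Lum was below it on all 6. All 8 endothelial markers were below the median on all 6 arrays. So were 5 of 8 macrophage markers, Ptprc and Cd68 among them, with Adgre1, Csf1r and Lyz2 above it. The epithelial markers Epcam, Krt5 and Cldn3 (3 of 9) and the adipocyte markers Lpl and Pparg (2 of 5 on the array) were above it as well.

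At 24 h, MCA changed few genes. Cyp1a1 and Cyp1b1, targets of the aryl hydrocarbon receptor, rose most, and many genes induced by interferon fell. In all, 282 genes passed (2.36%), of which 139 rose (1.16%) and 143 fell (1.2%). Only 8 rose by 2-fold or more and no gene that passed fell by as much. They were Cyp1a1, Cyp1b1, Aldh3a1 and Tiparp of the receptor's battery, and Chil1, Ier3, Gpc1 and Ptgs2 outside it. The groups did not overlap for 135 of the 139 genes that rose and 133 of the 143 that fell. Over all genes tested the share was 12.7% (5.78% with MCA higher, 6.87% with MCA lower). The 139 and 143 were picked by small p-values on these same arrays, so their separation is partly built in and is only a description. At an unadjusted p under 0.05 there were 1384 genes. An array reads the RNA of the whole culture, so fewer cells that express a gene and less RNA per cell cannot be told apart. The count of falls was 88 without MCA replicate 1, 91 without MCA replicate 2 and 89 without control replicate 3. The spread was estimated over 30 arrays, and with the 6 arrays alone the total was 67.

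**Figure D1:**
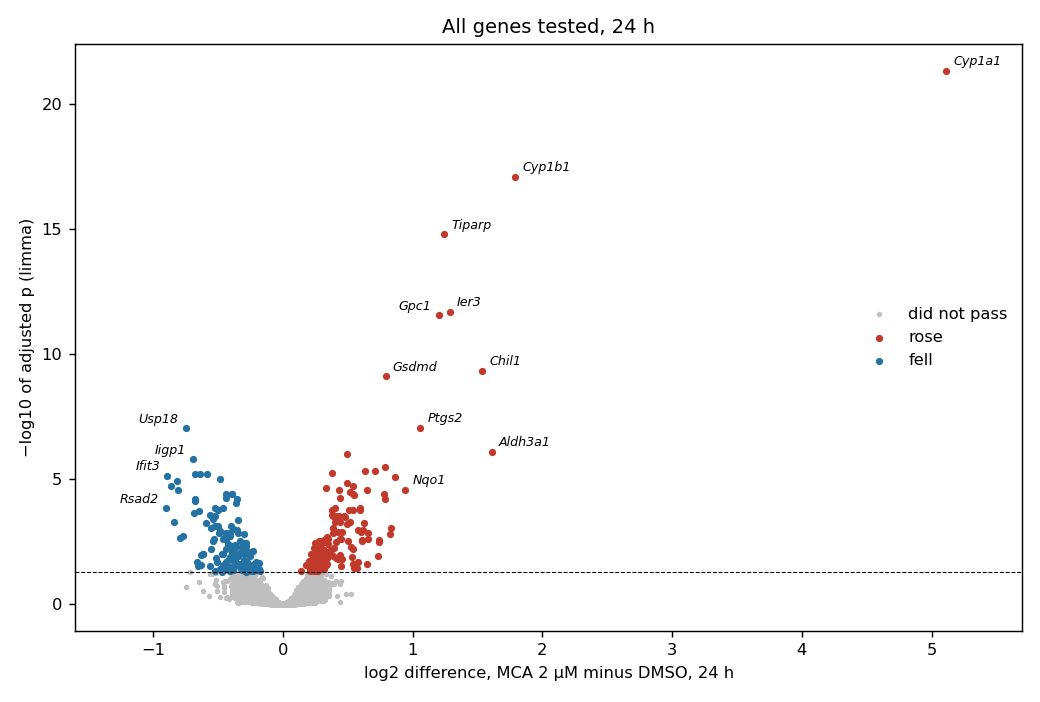
For the 11960 genes tested, the x axis is the log2 difference of MCA at 2 µM from DMSO at 24 h and the y axis is −log10 of the adjusted p from limma, with the dashed line at 0.05. Red points rose and blue points fell; Cyp1a1 stands at 5.11, far to the right of all others, and no fall reaches −1.

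The plot of all genes by size and adjusted p shows the shape of the response: a long right arm of few genes, led by receptor targets, and a short, denser left arm. Cyp1a1, the cytochrome P450 that is the textbook target of the receptor, had intensities of 1642, 1801 and 1528 on the 3 MCA arrays and 39.0, 24.0 and 31.8 on the 3 control arrays. The controls lay below the array median and the MCA arrays far above it, with no overlap. The difference was 5.11 ± 0.12 (95% interval 4.87 to 5.35, adjusted p = 4.44e-22), a 34.5-fold change on this scale.

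Cyp1b1, the second hydrocarbon-oxidising P450 of the battery and the main one of fibroblasts, was already bright without MCA. Its intensities were 1247, 1125 and 1503 in the controls and 4485, 4425 and 4456 with MCA. The MCA arrays lay within a narrow band well above every control. The difference was 1.79 ± 0.06 (adjusted p = 7.9e-18), or 3.46-fold, and a further bright probe set of the gene gave 2.05.

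Tiparp, a member of the poly(ADP-ribose) polymerase family, is induced by the receptor and dampens the receptor in return. Tiparp read 1515, 1583 and 1362 with MCA and 615, 577 and 643 in the controls. No MCA array came near a control array. It rose by 1.24 ± 0.05 (adjusted p = 1.58e-15), and its other probe sets gave 1.23 and 1.26. Nqo1, a quinone reductase driven by both the receptor and Nrf2, read 827, 759 and 663 with MCA and 348, 334 and 465 in the controls, without overlap. It rose by 0.94 ± 0.13 (adjusted p = 2.66e-05). Aldh3a1, an aldehyde dehydrogenase of the battery, was dim throughout: 71.8, 75.4 and 117 with MCA and 22.2, 17.0 and 16.2 in the controls. It rose by 1.61 ± 0.17 (adjusted p = 8.06e-07), with MCA replicate 3 the highest array.

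The battery list holds 11 genes, and 5 were tested. All 5 rose, with a median of 1.61 against 0.00 over all genes. That count is no support for the list as a whole, since Cyp1a1 and Aldh3a1 were above the array median only on the MCA arrays of these 6. Cyp1a2, the liver-type P450, and Ahrr, the repressor of the receptor, were below the median on all 6 arrays, with differences of 0.01 and 0.10. Gsta2 was also below it, at −0.38. Without the filter on dim probe sets, 5 of 8 members passed. The other 3, Ugt1a6a, Ugt1a6b and Gsta1, were not analysed here. None of the 5 lost its call when any 1 array was left out, the highest adjusted p being 0.000578.

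Among the genes of the receptor and its partners, Nfe2l2 alone passed. Ahr, the receptor, read 297, 302 and 251 with MCA and 335, 295 and 429 in the controls. The deposited intensities overlapped while the normalised values did not, and the difference of −0.28 ± 0.08 did not pass (adjusted p = 0.0609). It passed without MCA replicate 2 or control replicate 1 or 2. A dimmer probe set of Ahr, above the array median on all 6 arrays, gave 0.04 ± 0.14 and did not pass. The receptor's partner Arnt differed by −0.10 ± 0.12 and Arnt2 by −0.16 ± 0.12. The chaperone Hsp90aa1 differed by −0.05 ± 0.09, and none of these passed. Nfe2l2, which encodes the oxidative stress regulator Nrf2 and is itself a receptor target, read 1153, 1236 and 1186 with MCA and 807, 777 and 835 in the controls. The groups did not overlap, and it rose by 0.54 ± 0.07 (adjusted p = 1.88e-05). Keap1, the protein that holds Nrf2 back, differed by 0.02 ± 0.06 and did not pass. So 1 of the 6 genes tested from the list of receptor and partners rose and none fell.

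The stretches of 250 bases before the start sites of Cyp1a1, Cyp1b1 and Tiparp each hold the core letters to which the receptor and Arnt bind, GCGTG, once. They are printed because these 3 genes rose with the smallest adjusted p-values of all, and Ptgs2 is added as a gene of another pathway among the largest rises. Sequences are from RefSeq on GRCm38.p6, read 5' to 3' on the gene's strand, with the core in capitals, as CACGC where it lies on the opposite strand. They are the positions chr9:57697363-57697612 (+) for Cyp1a1, chr17:79715062-79715311 (−) for Cyp1b1, chr3:65528197-65528446 (+) for Tiparp and chr1:150099781-150100030 (+) for Ptgs2.
Cyp1a1: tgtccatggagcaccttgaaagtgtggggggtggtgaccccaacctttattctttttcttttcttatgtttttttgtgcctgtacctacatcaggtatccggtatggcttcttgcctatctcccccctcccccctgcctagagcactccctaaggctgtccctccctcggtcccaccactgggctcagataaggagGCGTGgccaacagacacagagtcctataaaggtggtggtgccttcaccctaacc
Cyp1b1: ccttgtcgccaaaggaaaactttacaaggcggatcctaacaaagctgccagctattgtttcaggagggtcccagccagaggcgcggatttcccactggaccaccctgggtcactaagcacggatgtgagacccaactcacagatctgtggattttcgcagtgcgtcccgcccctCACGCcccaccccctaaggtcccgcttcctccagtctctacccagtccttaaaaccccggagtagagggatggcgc
Tiparp: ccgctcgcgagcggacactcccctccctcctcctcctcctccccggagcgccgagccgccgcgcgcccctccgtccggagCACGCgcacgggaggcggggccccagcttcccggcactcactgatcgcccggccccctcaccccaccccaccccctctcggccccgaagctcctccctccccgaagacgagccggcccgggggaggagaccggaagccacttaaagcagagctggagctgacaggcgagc
Ptgs2: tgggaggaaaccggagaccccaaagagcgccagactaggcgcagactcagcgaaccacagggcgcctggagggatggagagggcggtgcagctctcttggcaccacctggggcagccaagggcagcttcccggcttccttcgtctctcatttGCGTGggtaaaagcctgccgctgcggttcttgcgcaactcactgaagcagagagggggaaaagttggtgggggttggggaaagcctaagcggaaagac
The core begins 54 bases before the start in Cyp1a1, 76 in Cyp1b1, 170 in Tiparp and 98 in Ptgs2. These 5 letters are frequent. In windows of 250 bases before to 50 after the start, read on both strands, they occur in 55.2% of all genes tested that have a promoter in the table. The share was 59.2% of genes that rose and 50.9% of genes that fell. Of the 15 largest rises, from which the 4 examples come, 5 of 11 with a promoter in the table held it (45.5%), and Chil1, Cldnd1 and Flrt3 did not. A match describes the letters only.

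**Figure D2:**
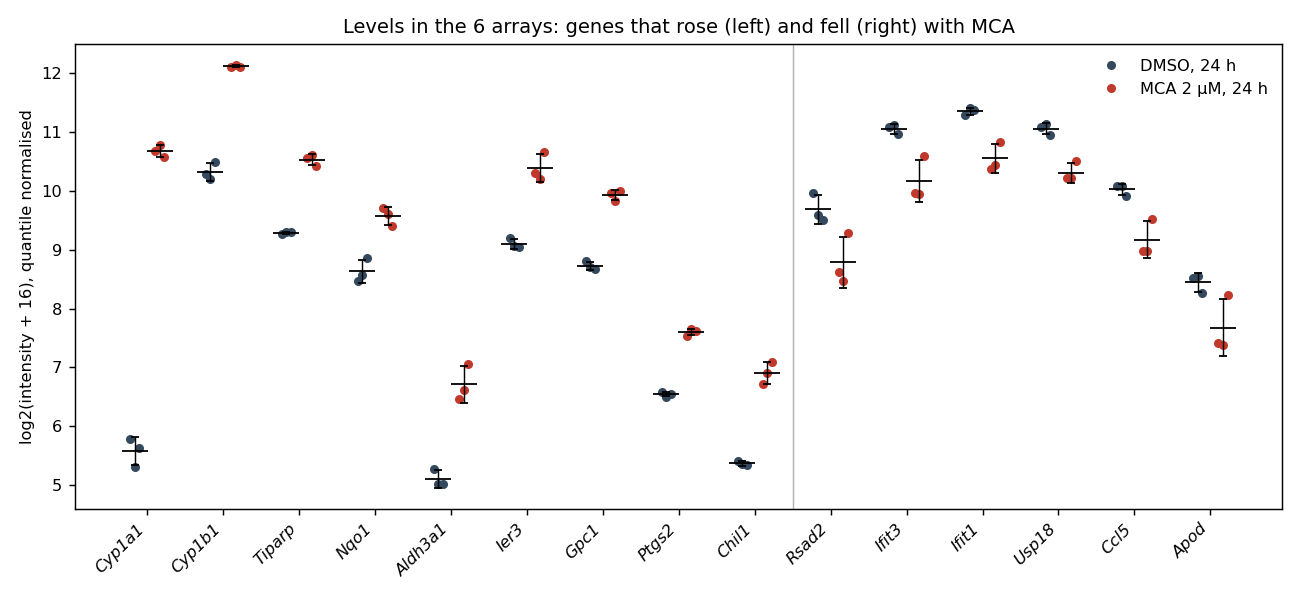
The y axis is log2(intensity + 16) after quantile normalisation for 9 genes that rose (left of the grey line) and 6 that fell (right). Points are the 3 arrays of each group, black bars their mean and SD. The groups do not overlap in any of the 15 genes, which was a condition of their choice. In the genes that fell, the MCA array nearest the controls is replicate 3.

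The plot of levels in the 6 arrays shows how far the receptor genes separate from the controls compared with the other genes. Outside the battery, Ier3, an early response gene that protects against cell death, read 1254, 1171 and 1619.7 with MCA and 585, 486 and 535 in the controls and rose by 1.29 ± 0.07 (adjusted p = 1.97e-12). Gpc1, a cell surface heparan sulfate proteoglycan that presents growth factors, read 986, 895 and 1027 against 442, 367 and 410.3 and rose by 1.20 ± 0.07 (adjusted p = 2.74e-12). Chil1, a secreted chitinase-like protein linked to tissue remodelling, read 88.2, 95.4 and 119 against 26.2, 25.4 and 23.5 and rose by 1.53 ± 0.11 (adjusted p = 4.47e-10). In each of the 3, every MCA array exceeded every control by a wide margin. Chil1 was above the array median only on the MCA arrays.

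Ptgs2, the inducible cyclooxygenase that makes prostaglandins, read 169, 172 and 181 with MCA and 81.8, 68.0 and 75.6 in the controls. The MCA values were tightly grouped and clear of the controls. It rose by 1.06 ± 0.10 (adjusted p = 8.67e-08), and its dimmer probe set gave 0.85. It was the 1 gene of 9 tested in the list of prostaglandin synthesis and receptors that passed; the synthases Ptges and Ptgis were at 0.15 and 0.11 and did not pass.

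The remaining genes of the 15 largest rises were of mixed function. Gsdmd, the pore-forming protein of pyroptosis, read 869, 773 and 952 with MCA against 549.6, 438 and 487 and rose by 0.79 ± 0.06 (adjusted p = 7.5e-10). Phlda1, a growth factor response gene, rose by 0.79 ± 0.09, and Flrt3, a membrane protein of cell adhesion and fibroblast growth factor signalling, rose by 0.86 ± 0.11. Cldnd1 rose by 0.79 ± 0.11. Lrrc8d, a subunit of volume-regulated anion channels, rose by 0.83 ± 0.15, and Olfm1, a secreted glycoprotein, by 0.84 ± 0.15. Olfm1 reached 132 on MCA replicate 3 against 73.6 and 65.2 on the other MCA arrays. None of the 15 lost its call without any 1 array, with a highest adjusted p of 0.0219; with all 60 arrays in 1 fit, Olfm1, Phlda1 and Lrrc8d did not pass, and Olfm1 did not with the 6 arrays alone.

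Genes induced by type I interferon fell together. These genes are switched on when cells sense interferon, and many encode antiviral proteins that fibroblasts also make without infection. Of 44 tested members of the list, 32 fell and 1, Ifi27, rose by 0.49 ± 0.08. The median was −0.44, against 0.00 over all genes, of which 1.2% fell. In 35 of the 44 the groups did not overlap and MCA was lower, against 6.87% of all genes. The falls are small, the largest being 1.86-fold on this scale.

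Rsad2, the antiviral radical enzyme viperin, read 381, 325 and 608 with MCA and 1009, 721 and 734 in the controls. MCA replicate 3 lay nearest to the controls, and the groups did not overlap. It fell by 0.90 ± 0.14 (adjusted p = 0.000144), and its other probe sets gave −0.93 and −0.89. With the 6 arrays alone, its adjusted p was 0.0681.

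Ifit3 and Ifit1 encode antiviral proteins with tetratricopeptide repeats, Ifit1 by binding viral RNA. Ifit3 read 995, 976 and 1541 with MCA and 2212, 2196 and 2048 in the controls, a fall of 0.89 ± 0.11 (adjusted p = 7.21e-06). Ifit1 read 1332, 1398 and 1812 with MCA and 2519.5, 2696 and 2718 in the controls, a fall of 0.81 ± 0.11 (adjusted p = 2.66e-05). In both, MCA replicates 1 and 2 were close together and replicate 3 stood higher, still below each control.

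Usp18, the protease that removes Isg15 from proteins and restrains interferon signalling, read 1184, 1175 and 1439 with MCA and 2200.4, 2214 and 2039 in the controls. It had the smallest adjusted p of the genes that fell, with a fall of 0.75 ± 0.07 (adjusted p = 9.35e-08). The GTPases Mx2 and Mx1 fell by 0.84 ± 0.14 and 0.79 ± 0.15. Iigp1, an immunity-related GTPase, read 829, 823 and 1087 against 1580.3, 1504 and 1388 and fell by 0.69 ± 0.08 (adjusted p = 1.6e-06). None of these genes overlapped between groups. Mx2 did not pass in the fit of all 60 arrays.

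Regulators of the pathway were among the genes that fell. Irf7, the transcription factor that amplifies the response, read 249, 219 and 320.3 with MCA and 510.0, 405 and 391 in the controls and fell by 0.68 ± 0.10 (adjusted p = 5.95e-05). Dhx58, a sensor of viral RNA, fell by 0.68 ± 0.11, and Irf9 by 0.27 ± 0.07 (adjusted p = 0.0334). Gbp2, a bright guanylate-binding protein of the same list, differed by −0.01 ± 0.08 and did not pass. The 2',5'-oligoadenylate synthetase Oas1a fell by 0.63 ± 0.08, its relative Oasl2 by 0.53 ± 0.09, and the RNA-activated kinase Eif2ak2 by 0.33 ± 0.07. Bst2, which tethers virus to the cell surface, fell by 0.46 ± 0.09, Isg20, an exonuclease, by 0.50 ± 0.08, and Igtp and Irgm1, GTPases of the Iigp1 family, by 0.52 ± 0.08 and 0.41 ± 0.08.

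Chemokines that interferon induces fell as well. Ccl5, which attracts T cells, read 494, 480.2 and 727 with MCA and 1085, 1042 and 989 in the controls and fell by 0.86 ± 0.11 (adjusted p = 1.82e-05). Cxcl11 fell by 0.65 ± 0.17 and Cxcl10 by 0.63 ± 0.16, with adjusted p of 0.0285 and 0.0278. Both lost their call without MCA replicate 1 or 2 or control replicate 1 or 2, with adjusted p from 0.073 to 0.185 for Cxcl11 and 0.0939 to 0.231 for Cxcl10. Of the other 15 largest falls, Gm9706 fell by 0.81 ± 0.10, Gm4951 by 0.68 ± 0.10 and Slfn8, of the Schlafen family, by 0.68 ± 0.08.

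The size of the interferon gene decrease differed between the MCA arrays. The median level of the 44 genes, in log2, was 9.38, 9.31 and 9.61 on MCA replicates 1, 2 and 3 and 9.80, 9.72 and 9.68 on the controls. MCA replicate 3 was thus close to control replicate 3, and it was the highest MCA array for all 32 genes that fell. Without it, 37 of the 44 fell and the median was −0.55. Of the 32, 24 kept their call without any 1 array. The other 8 were Cmpk2, Ddx58, Irf9, Parp14, Parp9, Tor3a, Trim25 and Zbp1, which lost it without at least 1 of MCA replicates 1 and 2 and control replicates 1, 2 and 3, with adjusted p up to 0.266. Fits that estimate the spread from other arrays gave other counts: 14 fell with the 6 arrays alone, and 21 with all 60 arrays.

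**Figure D3:**
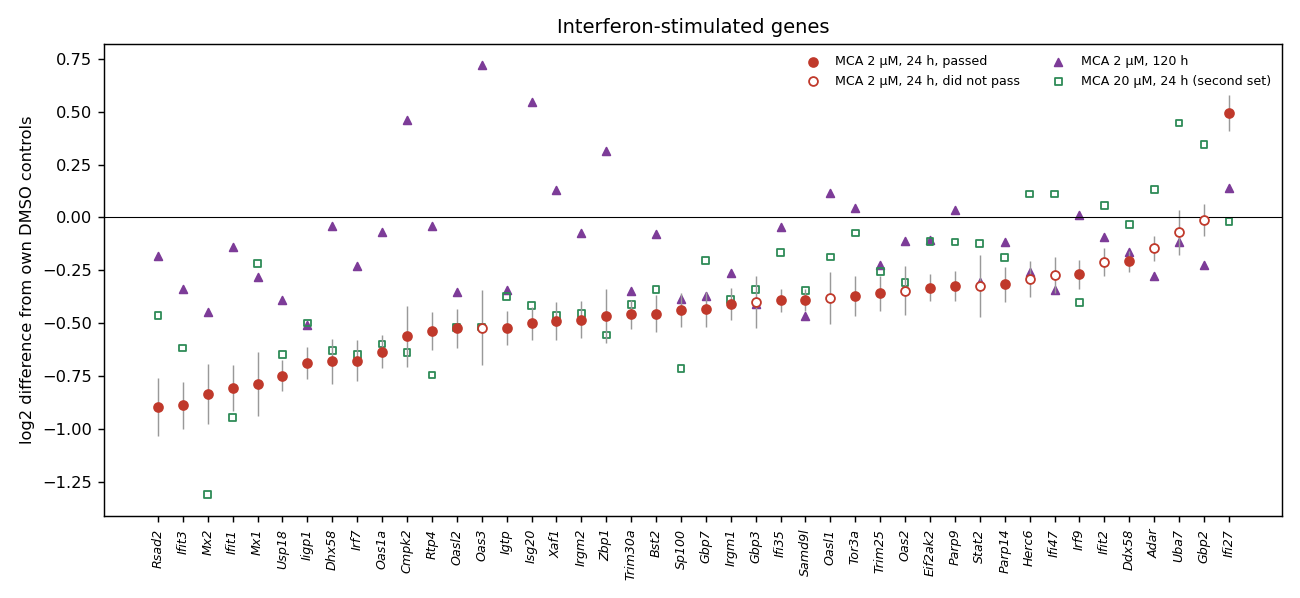
The y axis is the log2 difference from the matching DMSO controls for the 44 interferon-stimulated genes tested, ordered by their value at 2 µM and 24 h (red circles, filled where the gene passed, with bars of 1 standard error). Purple triangles are 2 µM at 120 h and green squares 20 µM at 24 h from the second set of cultures; 43 of the 44 red circles lie below 0, and Ifi27 lies above.

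The plot of the 44 interferon-stimulated genes shows a graded decrease rather than a few outliers. The 250 bases before the start of 4 of the genes that fell are printed, chosen because they hold the core of the interferon response element, GAAA followed after any 2 bases by GAAA. It is shown in capitals, and reads TTTC, 2 bases, TTTC where it lies on the opposite strand. They are from RefSeq on GRCm38.p6: chr19:34640639-34640888 (+) for Ifit1, chr19:34583279-34583528 (+) for Ifit3, chr12:26456453-26456702 (−) for Rsad2 and chr11:48871421-48871670 (−) for Irgm1.
Ifit1: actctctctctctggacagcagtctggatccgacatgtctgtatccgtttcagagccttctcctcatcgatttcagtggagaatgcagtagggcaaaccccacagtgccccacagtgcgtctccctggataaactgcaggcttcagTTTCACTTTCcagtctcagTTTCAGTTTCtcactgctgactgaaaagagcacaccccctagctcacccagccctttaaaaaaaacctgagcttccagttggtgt
Ifit3: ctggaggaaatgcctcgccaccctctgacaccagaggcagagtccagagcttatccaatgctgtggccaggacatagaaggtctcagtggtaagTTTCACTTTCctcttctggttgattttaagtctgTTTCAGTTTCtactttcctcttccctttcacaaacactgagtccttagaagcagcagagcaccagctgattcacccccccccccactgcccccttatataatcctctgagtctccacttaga
Rsad2: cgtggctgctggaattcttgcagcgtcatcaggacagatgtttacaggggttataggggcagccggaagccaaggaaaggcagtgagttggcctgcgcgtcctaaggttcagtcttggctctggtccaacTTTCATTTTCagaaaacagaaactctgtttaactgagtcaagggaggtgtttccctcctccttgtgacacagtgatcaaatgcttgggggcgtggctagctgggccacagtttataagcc
Irgm1: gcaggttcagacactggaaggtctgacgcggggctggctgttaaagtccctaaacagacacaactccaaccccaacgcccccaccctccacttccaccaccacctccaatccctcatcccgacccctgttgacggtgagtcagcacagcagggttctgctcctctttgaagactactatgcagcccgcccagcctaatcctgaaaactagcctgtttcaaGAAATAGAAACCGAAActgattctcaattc
The element begins 104 and 85 bases before the start in Ifit1, 156 and 122 in Ifit3, 120 in Rsad2 and 30 and 24 in Irgm1, where both matches overlap. In windows of 250 bases before to 50 after the start, read on both strands, it occurred in 25 of 108 genes that fell and have a promoter in the table (23.1%). It occurred in 1 of 103 that rose (0.971%) and in 347 of 9659 genes tested (3.59%). Of the interferon genes with a promoter in the table, 12 of 22 that fell and 4 of 10 that did not held it. These are descriptions of letters, and genes of the list were gathered as interferon targets in the first place.

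Other inflammatory lists held genes that rose. In the list of acute-phase and NF-kappaB genes, 4 of 15 rose and none fell, with a median of 0.22. Ptx3, a secreted pattern recognition protein, read 1995, 2309.7 and 1365 with MCA and 914, 1145 and 1265 in the controls and rose by 0.74 ± 0.15 (adjusted p = 0.00262). MCA replicate 3 lay just above the highest control. Birc3, an inhibitor of apoptosis, rose by 0.44 ± 0.06 and Tnfaip2 by 0.31 ± 0.06, next to Chil1. The call of Ptx3 was lost with the mean over its probe sets, at 0.10, and so was that of Birc3. Among 17 chemokines and cytokines, the neutrophil attractants Cxcl5 and Cxcl1 rose by 0.61 ± 0.12 and 0.44 ± 0.10, and the macrophage growth factor Csf1 by 0.21 ± 0.06. The other 3 that passed were Ccl5, Cxcl10 and Cxcl11, which fell. Csf1 lost its call without each of the 6 arrays in turn, with adjusted p of 0.0684 to 0.118, and Cxcl1 without MCA replicate 1 or 3 or control replicate 1 or 2, with 0.0525 to 0.0892. Of 13 genes of class I antigen presentation, 1 rose, Tapbpl at 0.29, and lost its call without MCA replicate 1 or 3 or control replicate 3 (0.0537 to 0.269, where such ranges after a lost call are adjusted p). The bright members B2m, H2-D1 and H2-K1 were at −0.05, 0.05 and 0.06 and did not pass.

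**Figure D4:**
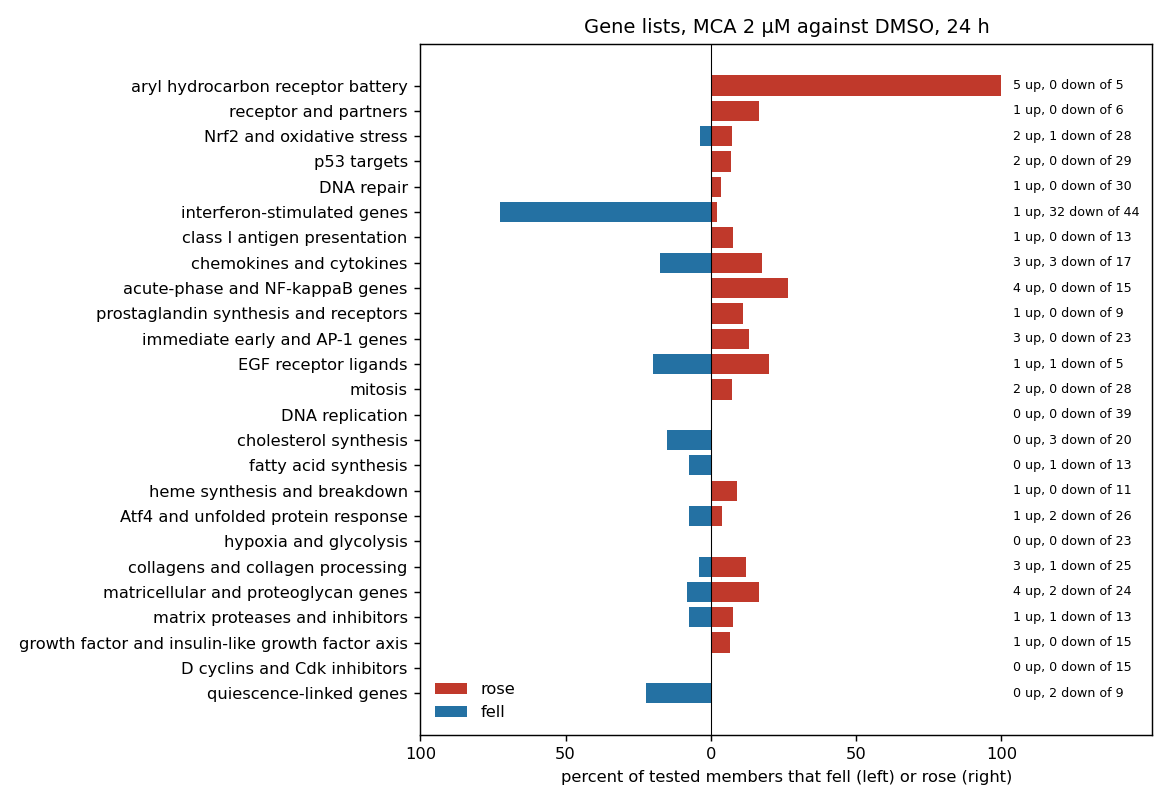
Bars give the percent of the tested members of each gene list that rose (red, right) or fell (blue, left) with MCA at 2 µM and 24 h, with the counts at the right edge. The receptor battery and the interferon-stimulated genes are the longest bars; over all genes 1.16% rose and 1.2% fell.

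The plot of percent changed by list shows that most other pathways had few members past the threshold. Of 23 early response and AP-1 genes, 3 rose: Phlda1, Fosl2 at 0.39 and Junb at 0.37; Junb lost its call without MCA replicate 3 (adjusted p = 0.0516). Of 5 EGF receptor ligands and feedback genes, the ligand Ereg read 169, 199 and 196 with MCA and 106, 98.1 and 113 in the controls and rose by 0.73 ± 0.17 (adjusted p = 0.0122). Its call was lost without MCA replicate 2 (0.0723). Errfi1, an inhibitor of the EGF receptor, fell by 0.38 ± 0.10 and lost its call without each of the 6 arrays (0.0539 to 0.232).

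Few genes of the DNA damage response passed at 24 h. Of 29 p53 targets, 2 rose and none fell, with a median of 0.05. They were Ier3 and the death receptor Fas, which read 393, 455 and 487 with MCA and 336, 301 and 277 in the controls and rose by 0.52 ± 0.09 (adjusted p = 0.000497). Mdm2, the p53 inhibitor that p53 induces, was at 0.08 ± 0.05, and Ccng1 at −0.02 ± 0.09; neither passed. Of 30 DNA repair genes, 1 rose, Fancd2 at 0.34, which lost its call without MCA replicate 1 or control replicate 2 or 3 (0.0709 to 0.0819).

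Among 28 genes of Nrf2 and oxidative stress, 2 rose and 1 fell, with a median of 0.05. The efflux pump Abcc1 rose by 0.30 ± 0.06 and the epoxide hydrolase Ephx1, which acts on hydrocarbon epoxides after Cyp1 enzymes, by 0.35 ± 0.07. Gsta4, a glutathione transferase, fell by 0.31 ± 0.06. The call of Abcc1 was lost without MCA replicate 3 or control replicate 3 (0.0657 to 0.079). In heme synthesis and breakdown, 1 of 11 rose: Cpox, coproporphyrinogen oxidase, read 811, 977 and 827 against 499, 558 and 643 and rose by 0.61 ± 0.12 (adjusted p = 0.00298). Cpox did not pass in the fit of all 60 arrays. Of 26 Atf4 and unfolded protein response genes, Ddit4 rose by 0.38 ± 0.06, and Ddit3 and Trib3 fell by 0.35 ± 0.05 and 0.39 ± 0.08. No gene of hypoxia and glycolysis passed among 23.

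Few proliferation genes passed at 24 h. Of 39 DNA replication genes none passed, with a median of 0.08, and of 28 mitosis genes 2 rose, with a median of 0.06. These were Top2a at 0.28 and Espl1 at 0.28. Top2a lost its call without control replicate 3 (0.053), and Espl1 without MCA replicate 1 or 3 or control replicate 2 or 3 (0.0775 to 0.207). Neither passed without normalisation or with median centring. Differences were positive in 25 of the 28 mitosis genes and 31 of the 39 replication genes, against 5745 of all 11960. In 11 of the mitosis genes and 3 of the replication genes the groups did not overlap and MCA was higher, against 5.78% of all genes. No gene of 15 passed among D cyclins and Cdk inhibitors. Of 9 genes linked to quiescence, Apod and Gas2 fell. Apod, a lipocalin that accumulates in resting fibroblasts, read 153, 140.0 and 285 with MCA and 363, 328 and 303 in the controls. MCA replicate 3 almost reached the controls. It fell by 0.77 ± 0.15 (adjusted p = 0.00181), which was lost with the mean over its probe sets, in the fit of all 60 arrays and with the 6 arrays alone. Gas2 fell by 0.38 ± 0.09 and lost its call without any of the 3 MCA arrays or control replicate 2 or 3 (0.0559 to 0.166).

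In lipid synthesis the few genes that passed fell. Of 20 cholesterol synthesis genes, 3 fell and none rose, with a median of −0.19. They were Fdft1, squalene synthase, by 0.34 ± 0.08, Fdps, farnesyl diphosphate synthase, by 0.31 ± 0.07, and Nsdhl by 0.24 ± 0.06. Fdft1 lost its call without MCA replicate 2 or control replicate 3 (0.0743 to 0.0895) and Fdps without MCA replicate 2 (0.0521). Nsdhl lost it without MCA replicate 1 or 2 or any control array (0.0775 to 0.188). Of 13 genes of fatty acid synthesis, 1 fell, Mid1ip1 by 0.21 ± 0.06, and that call was lost without MCA replicate 2 or 3 or control replicate 1 or 3 (0.103 to 0.292).

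The extracellular matrix changed in both directions. Of 25 collagens and collagen-processing genes, Col6a1 and Col6a2, 2 chains of the same beaded collagen, rose by 0.38 ± 0.06 and 0.39 ± 0.07. Pcolce, which aids the trimming of procollagen, rose by 0.21 ± 0.06, and Col11a1 fell by 0.41 ± 0.11. Those last 2 calls were lost without any of the 3 MCA arrays or control replicate 2 or 3, with 0.0743 to 0.229 and 0.07 to 0.315. The bright fibrillar collagens Col1a2 and Col3a1 were at 0.03 and 0.08 and did not pass.

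Of 24 matricellular and proteoglycan genes, 4 rose and 2 fell. Ccn1, a matricellular protein that binds integrins, read 774, 756 and 699 with MCA and 453, 431 and 530.2 in the controls and rose by 0.63 ± 0.08 (adjusted p = 4.54e-06). The call of Ccn1 was lost in the fit of all 60 arrays. Vcan, a large proteoglycan, rose by 0.54 ± 0.08, Ccn5 by 0.65 ± 0.16 and Thbs2 by 0.46 ± 0.11. The small leucine-rich proteoglycans Ogn and Aspn fell by 0.40 ± 0.07 and 0.49 ± 0.13. Ccn5 and Aspn lost their calls without MCA replicate 1 or 2 or control replicate 2 or 3 (0.0506 to 0.238 and 0.104 to 0.326), and Thbs2 without MCA replicate 3 or control replicate 2 or 3 (0.054 to 0.177).

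Of 13 matrix proteases and inhibitors, Adamts4 rose by 0.37 ± 0.08, a call lost without control replicate 2 (0.074), and Adamts1 fell by 0.30 ± 0.06. Of 15 genes of growth factors and the insulin-like growth factor axis, 1 rose, Igfbp4 by 0.40 ± 0.06. None of 15 fibroblast markers passed. Acta2, smooth muscle actin, fell by 0.42 ± 0.10 and was the 1 of 5 tested smooth muscle markers to pass. It lost its call without MCA replicate 3 or control replicate 3 (0.15 to 0.182). The summed intensity of the 9 smooth muscle markers was 1717 to 2357 with MCA and 2407 to 3007 in the controls. Most of that sum is Acta2, at log2 10.81, 10.67 and 10.30 with MCA and 10.97, 10.91 and 11.15 in the controls. Of the 5 tested members, 2 had a positive difference and 3 a negative one. Myh11, Cnn1, Tagln and Lmod1 were below the array median on all 6 arrays. The part of the lower sum in other changes was not tested.

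After 120 h at the same concentration, the 5 battery genes rose again, and more than 10 times as many genes passed. Against its own DMSO controls, 4885 genes passed (40.8%), of which 2362 rose (19.7%) and 2523 fell (21.1%). With median centring the share of rises among these was 62.8% in place of 48.4%. Of the 139 genes that rose at 24 h, 80 also rose at 120 h (57.6%, and 3.39% of the 120 h rises), 22 fell and 37 did not pass. Of the 143 that fell, 74 also fell (51.7%, and 2.93% of the 120 h falls), 16 rose and 53 did not pass. These shares are to be read against the 19.7% and 21.1% of all genes that rose and fell at 120 h.

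**Figure D5:**
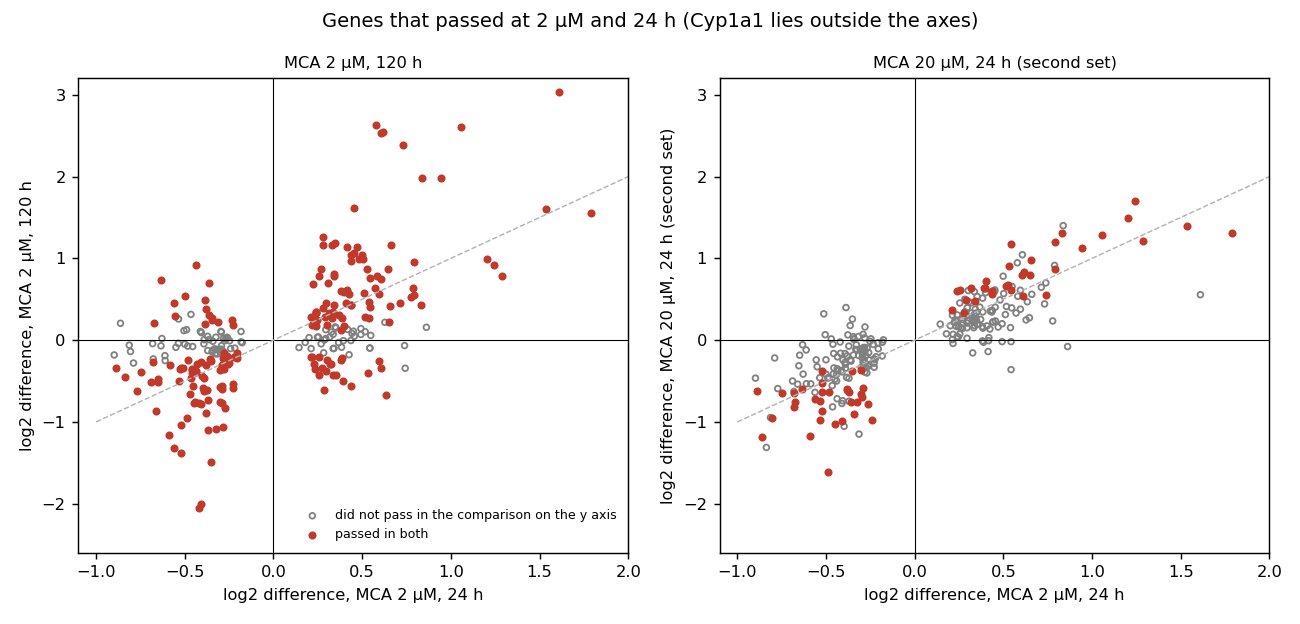
Each point is a gene that passed at 2 µM and 24 h, Cyp1a1 apart, which lies outside the axes, with its log2 difference there on the x axis; the y axes are the log2 differences at 2 µM and 120 h (left) and at 20 µM and 24 h in approach 2 (right), filled points passed there too, and the dashed line marks equal values. On the right no filled point lies in the upper left or lower right corner, while on the left 22 genes that rose and 16 that fell at 24 h passed in the opposite direction.

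The plot of the 282 genes against both other MCA exposures shows genes on both sides of 0 at 120 h, and most genes on the side of their 2 µM value at 20 µM. The change between times was tested as the 120 h difference minus the 24 h difference, in which 3565 genes passed (29.8%), 1863 upward (15.6%) and 1702 downward (14.2%). With median centring 70.6% of them were upward in place of 52.3%. Genes named for their 24 h value carry that value into this difference, so a return towards 0 is partly built in.

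Cyp1a1 rose by 5.56 ± 0.12 at 120 h, a difference of 0.45 ± 0.16 from 24 h (adjusted p = 0.0408). Its log2 level with MCA was 10.68, 10.79 and 10.58 at 24 h and 10.49, 10.55 and 10.42 at 120 h, while the controls went from 5.78, 5.31 and 5.62 to 4.85, 4.97 and 4.97. All of these control values lie below the array median of 5.90, so the difference rests on readings near background and not on a higher level with MCA. For Nqo1, which rose by 1.99 ± 0.13 (difference 1.04 ± 0.18, adjusted p = 6.93e-05), the level with MCA was 9.71, 9.61 and 9.40 at 24 h and 9.35, 9.17 and 9.41 at 120 h. Its controls went from 8.46, 8.58 and 8.86 to 7.20, 7.32 and 7.45. Aldh3a1 rose by 3.03 ± 0.17 (difference 1.42 ± 0.24, adjusted p = 6.55e-05), against controls below the array median at both times. Tiparp and Cyp1b1 rose less, by 0.92 ± 0.05 and 1.56 ± 0.06 (differences of −0.33 ± 0.08 and −0.24 ± 0.09, adjusted p = 0.00151 and 0.0406). Without control replicate 1 of 120 h the difference of the Cyp1b1 means was −0.14. Ptgs2 rose by 2.61 ± 0.10, larger by 1.55 ± 0.14 (adjusted p = 8.38e-09), and Ereg by 2.38 ± 0.17, larger by 1.65 ± 0.24 (adjusted p = 7.24e-06). Both were higher with MCA at 120 h than at 24 h, and lower in the controls. The log2 level of Ereg with MCA went from 7.54, 7.83 and 7.73 to 8.34, 7.96 and 8.08. Its controls went from 6.91, 6.98 and 7.01 to 5.45, 5.87 and 5.92, near the array median. The Ereg difference thus rests in part on control readings near background.

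Of the 44 interferon genes, 18 fell and 3 rose at 120 h, with a median of −0.15. The difference between times passed upward in 20 and downward in 1, against 15.6% and 14.2% of all genes. Ifit1 was at −0.14 ± 0.11 and Rsad2 at −0.18 ± 0.14 at 120 h, neither of which passed, while Usp18 fell by 0.39 ± 0.07 and Iigp1 by 0.51 ± 0.08. Ccl5 was at 0.21 ± 0.11 and did not pass. All 28 mitosis genes and all 39 DNA replication genes rose at 120 h, with medians of 1.25 and 0.91, against 19.7% of all genes. The median log2 level of the mitosis genes with MCA was 10.10, 9.96 and 10.08 at 24 h and 8.98, 8.89 and 8.98 at 120 h. In the controls that level went from 10.03, 9.86 and 9.86 to 7.59, 7.75 and 7.74. Replication genes likewise were lower at 120 h in both groups, and more so in the controls. These rises are thus smaller declines, not higher levels than at 24 h. Of 25 collagen genes, 19 fell and 1 rose, against 21.1% and 19.7% of all genes. Their median log2 level with MCA was 10.48, 10.38 and 10.59 at 24 h and 10.86, 11.01 and 10.90 at 120 h. The controls went up further, from 10.42, 10.31 and 10.24 to 11.79, 11.58 and 11.47. Ccn1 and Cxcl1, which rose at 24 h, fell by 0.67 ± 0.08 and 0.56 ± 0.10.

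The largest upward differences between times were those of the matrix protease Mmp3 at 4.71 ± 0.47, Dynap at 3.88 ± 0.36, the semaphorin Sema5a at 3.41 ± 0.40, the protease Adam8 at 2.97 ± 0.30, the tetraspanin Tspan8 at 2.89 ± 0.26 and the AP-1 subunit Fosl1 at 2.80 ± 0.34. None of the 6 passed at 24 h. The log2 level of Fosl1 with MCA went from 8.43, 8.61 and 8.28 to 9.42, 9.31 and 9.32. Its controls went from 8.06, 7.85 and 7.85 to 5.64, 6.18 and 6.25, near the array median. Tspan8, Mmp3 and Dynap were below the array median on all 3 controls of 120 h and all 3 MCA arrays of 24 h, and Sema5a on all 6 arrays of 24 h, so the sizes and order of these differences rest in part on readings near background. The largest downward ones were Pde6b at −2.18 ± 0.79, smooth muscle gamma actin Actg2 at −2.10 ± 0.23, the histone gene H3f3b at −2.08 ± 0.18, the myosin light chain Myl9 at −1.86 ± 0.18, Acta2 at −1.63 ± 0.14 and the matricellular protein Postn at −1.61 ± 0.26. Of these, Acta2 alone passed at 24 h. The log2 level of Acta2 with MCA was 10.81, 10.67 and 10.30 at 24 h and 10.42, 10.87 and 10.58 at 120 h. Its controls went from 10.97, 10.91 and 11.15 to 12.69, 12.66 and 12.67. The controls of Actg2, Myl9 and Postn also rose, and Myl9 and Postn were higher at 120 h with MCA as well. H3f3b with MCA was lower at 120 h than at 24 h. The Pde6b arrays split within groups, at 4.43, 7.90 and 7.65 on the 120 h controls, and without control replicate 1 of 120 h its difference of means was −3.29.

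At 20 µM for 24 h, a concentration 10 times higher in separate cultures of approach 2, 167 of 11390 genes passed (1.47%), 81 rising (0.711%) and 86 falling (0.755%). The approaches were scaled differently by the submitters, with trimmed means of 153 to 188 in approach 1 and 500.0 in approach 2, and the median residual SD was 0.11 and 0.20 log2 units, so counts are not set against each other. In approach 2 the same replicate numbers paired the arrays, and with the pairs as a block 1018 genes passed. Median centring left 94 genes, moved the median of all genes to −0.13, and gave 21.3% rises in place of 48.5%. With the stricter filter 91 passed, 60.4% of them rises. Without control replicate 2 of approach 2 the count was 71, without MCA replicate 1 it was 98 and without MCA replicate 2 it was 108. That last array had the highest median intensity of the 3, 85.2 against 60.5 and 67.0, and the highest log2 actin ratio, 0.54 against 0.38 and 0.34; its part in the counts was not tested beyond leaving it out.

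All 282 genes were also tested in approach 2. Of the 139 that rose at 2 µM, 34 rose at 20 µM (24.5%, and 44.2% of the rises there among genes tested in both), against 0.711% of all genes, and 129 had the same sign. Of the 143 that fell, 32 fell (22.4%, and 37.6% of the falls there), against 0.755%, and 127 had the same sign. None of the 282 passed in the opposite direction. These arrays share no sample with those of 2 µM.

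Of the 5 battery genes, 4 also rose at 20 µM. Cyp1a1 rose by 5.04 ± 0.17, Cyp1b1 by 1.31 ± 0.08, Nqo1 by 1.13 ± 0.12 and, on another probe set, Tiparp by 1.71 ± 0.14; Aldh3a1 had 0.56 ± 0.27 (adjusted p = 0.479) and did not pass. Gpc1 rose by 1.50 ± 0.19, Ier3 by 1.22 ± 0.15, Chil1 by 1.40 ± 0.31, Ptgs2 by 1.28 ± 0.24 and Gsdmd by 1.19 ± 0.15. Flrt3 was at −0.08 ± 0.17 and did not pass.

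Of the 44 interferon genes, 8 fell at 20 µM and 1 rose, with a median of −0.36. Usp18 fell by 0.65 ± 0.09 (adjusted p = 0.000153), Ifit1 by 0.95 ± 0.16 and Ccl5 by 1.19 ± 0.12; Rsad2 had −0.46 ± 0.14 (adjusted p = 0.102) and did not pass. Of the 20 cholesterol synthesis genes, 10 fell at 20 µM, with a median of −0.67. Fdft1 and Nsdhl fell by 0.90 ± 0.13 and 0.98 ± 0.12, while Fdps was at −1.15 ± 0.37 and did not pass. The concentrations were not compared within 1 fit, so a difference between them was not tested.

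BaP, a polycyclic aromatic hydrocarbon of different ring layout, was given at 0.5 µM for 24 h, a lower concentration than MCA, so differences between the compounds hold that difference in dose. Both share the DMSO controls. With BaP, 1159 genes passed (9.69%), 555 rising (4.64%) and 604 falling (5.05%). In the direct comparison of MCA with BaP, which does not use the controls, 378 genes passed (3.16%), 193 higher with MCA (1.61%) and 185 lower (1.55%). This is 1 pair of compounds. The count was 227, 233 and 232 without BaP replicates 1, 2 and 3. Without MCA replicate 1 or 2, 112 or 88 genes were lower with MCA.

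Many interferon genes were higher with MCA than with BaP. Of 44, 21 passed in that direction and none in the other. Their median log2 level was 9.22, 9.15 and 9.18 on the BaP arrays, below the 9.38, 9.31 and 9.61 of the MCA arrays. Rsad2 was 0.51 ± 0.14 higher with MCA (adjusted p = 0.0362), Ifit3 0.54 ± 0.11 (0.00433) and Usp18 0.42 ± 0.07 (0.000791). In each of them MCA replicate 3 was the highest MCA array and widened the difference. In log2, Rsad2 read 8.62, 8.46 and 9.28 with MCA and 8.32, 8.30 and 8.23 with BaP. Ifit3 read 9.97, 9.95 and 10.59 with MCA and 9.74, 9.55 and 9.60 with BaP. Against the shared controls, the median of the list was −0.74 with BaP and −0.44 with MCA. Of the 143 genes that fell with MCA, 39 were higher with MCA than with BaP and 9 lower, against 1.61% and 1.55% of all genes. The 143 were picked by low values on these same MCA arrays, which tilts the count towards lower.

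The Nrf2 list stood the other way, with 9 of 28 genes lower with MCA and none higher, and 6 of 26 Atf4 and unfolded protein genes were lower with none higher. In the battery, Nqo1 was lower with MCA by 0.61 ± 0.13 (adjusted p = 0.00513). Chil1 differed by −0.01 ± 0.11 (95% interval −0.25 to 0.22), Gpc1 by 0.07 ± 0.07 (−0.08 to 0.22) and Ier3 by −0.10 ± 0.07 (−0.25 to 0.05), and none of these passed. Of the 139 genes that rose with MCA, 17 were higher with MCA than with BaP, 6 were lower and 116 did not pass. Of all genes tested, 1.61% were higher and 1.55% lower. The 139 were picked by high values on these same MCA arrays, so an excess on the higher side is partly built in.

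Some genes of matrix and metabolism were higher with MCA than with BaP. Collagen genes passed upward in 8 of 25 and cholesterol synthesis genes in 6 of 20, with none downward in either list, and 7 of 23 hypoxia and glycolysis genes were higher. The largest were thrombospondin Thbs1 at 0.99 ± 0.14, tenascin Tnc at 0.89 ± 0.07, the glycolytic enzyme Pfkl at 0.88 ± 0.11, the proteoglycan Gpc6 at 0.88 ± 0.06, Adamts1 at 0.84 ± 0.06 and the cadherin Cdh13 at 0.77 ± 0.08. Against the controls, Thbs1 was at 0.11 with MCA and −0.88 with BaP, and Tnc at −0.16 and −1.05. The largest in the other direction were Afp at −1.01 ± 0.17, Tcim at −0.75 ± 0.17, Bdh2 at −0.69 ± 0.10, Serpinb9b at −0.67 ± 0.14, the biliverdin reductase Blvrb at −0.64 ± 0.08 and the P450 Cyp2c55 at −0.62 ± 0.07. Afp was below the array median on all MCA and control arrays and above it on the 3 BaP arrays, so its size and rank rest on readings near background. None of these 6 passed with MCA against the controls. Of the 6 genes higher with MCA, Adamts1 alone did, and it fell.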

How the data were processed

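Per the labels' protocols, biotin-labelled RNA of Balb/c 3T3 cells was hybridised to Affymetrix mouse arrays. The authors deposited linear intensities per probe set, made with GCOS per the submitters' processing notes; its version and scaling target are not given in the sources used here. Of 45101 probe sets, 34958 have 1 gene symbol in the platform annotation, 932 several and 9211 none. For each of 18194 symbols, the probe set with the highest mean was kept, and tested if above the array median on at least 3 arrays of its approach. Of probe sets without 1 symbol, 3916 were tested apart; 18 were higher and 21 lower with MCA.

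Intensities plus 16 were log2-transformed and quantile normalised within the 30 arrays of approach 1 (approach 2 apart). One mean per group was fitted with limma 3.58.1 in R 4.3.3 (10 groups, 20 residual degrees of freedom, eBayes with trend), and p-values were adjusted by Benjamini-Hochberg at a threshold of 0.05. Probe sets of Tiparp, Ifi27, Gm9706, Ccn1, Cxcl1, Acta2 and Aspn carry the suffix for sequence shared between transcripts, so related genes may add to them. The number of arrays limits the precision. Named genes were the 15 largest rises and falls that passed without overlap, the battery and receptor lists, members of the other lists that passed with up to 3 further bright ones, and the 6 largest each way between times and compounds. Members and lists were chosen with earlier results of these data known. Promoters are from RefSeq (GRCm38.p6) and matched by symbol. The same replicate numbers paired the arrays at 20 µM (correlations of deviations 0.22, 0.37 and 0.42) and at 120 h (0.53, 0.35 and 0.59). Alternatives changed normalization, pseudocount (1 and 64), filter, probe set rule, samples, variance model and replicate block, or left out 1 array.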

Additional observations from a re-analysis of the deposited data

Results flagged for a closer look

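The 120 h minus the 24 h difference (limma, adjusted p under 0.05) passed in 20 of 36 genes named for their 24 h value or their list, 16 upward and 4 downward, against 29.8% of all genes tested. For genes named for their 24 h value, that value is part of the difference. Another 12 genes were named for the size of this same difference, so their values are a description. Values are log2 differences between times, and a shift of the controls from 24 h to 120 h enters each of them.

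Among receptor targets and partners, the difference between times was 0.45 for Cyp1a1, 1.04 for Nqo1, 1.42 for Aldh3a1, −0.24 for Cyp1b1, −0.33 for Tiparp and 0.42 for the chaperone gene Hsp90aa1. The controls of Cyp1a1 and Aldh3a1 were below the array median at both times. Other genes that rose at 24 h gave 1.55 for Ptgs2, 1.14 for Olfm1, −0.50 for Ier3 and −0.70 for Flrt3. Of the 15 largest falls at 24 h, those that passed here all differed upward, which is a difference of changes and not of levels. The values were 0.72 for Rsad2, 0.55 for Ifit3, 0.67 for Ifit1, 0.36 for Usp18 and 0.45 for Irf7. They were 0.64 for Dhx58, 1.07 for Ccl5, 0.89 for Slfn8, 0.42 for Gm4951 and 0.75 for Gm9706. Of all 143 genes that fell at 24 h, 54 passed upward and 20 downward, Acta2 among the latter. The largest differences of all were 4.71 for Mmp3, 3.88 for Dynap, 3.41 for Sema5a, 2.97 for Adam8, 2.89 for Tspan8 and 2.80 for Fosl1 upward. Downward they were −2.18 for Pde6b, −2.10 for Actg2, −2.08 for H3f3b, −1.86 for Myl9, −1.63 for Acta2 and −1.61 for Postn.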

How the results depend on the processing

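Of the 97 named genes that passed at 24 h, 31 did so under every alternative that gave a value (11 of them had none under the stricter filter) and 66 lost the call under at least 1; 13 of 106 others gained it, and none reversed. The total of 282 genes was 139 without normalization, 155 with median centring, 169 with the stricter filter, 90 with all 60 arrays in 1 fit, 67 with the 6 arrays alone and 636 with the replicate block, and 190 to 320 without 1 array. Fewer genes are tested under the stricter filter; the cause of the other shifts was not tested. MCA replicates 1 and 2 of 24 h correlated best with the control of their own number (0.42 and 0.48). Replicate 3 did not (−0.19), so the numbers do not pair all of these arrays. The 4885 genes at 120 h became 2163 (stricter filter) and 2889 (60 arrays), and 4247 to 4447 without 1 array. The 3565 genes between times became 2131, 2310, 1742 and 1557 (no normalization, median centring, stricter filter, 60 arrays), and 2947 to 3541. The 378 genes between MCA and BaP became 136, 165, 244, 91, 201 and 1007 (the same 4, the compared groups alone, replicate block), and 227 to 456. The 167 genes at 20 µM became 94, 91, 569, 46 and 1018 (median centring, stricter filter, 60 arrays, compared groups alone, replicate block), and 71 to 124. At 120 h the block gave 5874. The added 16 shortens the fold changes of dim genes such as Aldh3a1 and Chil1.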
